A study of Mus musculus with 3 samples.

Results

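The nuclear factor I (NFI) family of transcription factors has 4 members in the mouse, *Nfia*, *Nfib*, *Nfic* and *Nfix*, and all 4 were followed here across the cell types, agonist doses and *Sstr2* genotypes of 3 single-cell RNA libraries of developing mouse retina. The rule lists the members by name, as NFI factors of late progenitors and glia, and uses no threshold on a measured value, and they are 4 of the 19946 genes listed in the libraries together. One library held CD1 wild-type retinas explanted at embryonic day 14 and cultured for 6 days with the Sstr2 agonist L-054,264 at 0, 5, 50 or 500 nM, with 2 samples at each dose. The other libraries held littermates collected at postnatal day 0 (P0) and day 14 (P14) from an *Sstr2* deletion line of C57BL/6NCrl origin crossed to CD1, each with 1 wild-type (+/+), 2 heterozygous (+/-) and 2 knockout (-/-) samples. The wild-type group of each age is a single sample, and the number of retinas in a sample is not given in the sources used here, so p-values measure the spread between samples, each of which is referred to below as 1 explant or 1 retina.

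NFI proteins are DNA-binding factors that form dimers and bind the palindrome of the half-sites TTGGC and GCCAA. In the nervous system *Nfia* and *Nfib* are known for the switch of progenitors from making neurons to making glia and *Nfix* for the timing of progenitor maturation. In the retina *Nfia*, *Nfib* and *Nfix* are known as factors of late progenitors and Müller glia that restrain proliferation and favour the late-born bipolar and glial fates. *Nfic* is best known for its part in tooth root formation.

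The letters that NFI proteins bind are shown for *Hes5*, *Apoe* and *Glul*, picked among genes that recur below and held them, and for *Nfix*. The lines are examples, and other half-sites, such as those of *Vim* and *Sox8* and another of *Apoe*, are left out. Other genes that recur below, among them *Rlbp1* and *Crym*, gave no half-site. Of the 3 members with a promoter window, *Nfix* was the one whose windows held them. The promoter windows were those of RefSeq on GRCm38.p6, from 250 bases before to 50 bases after a start site, and both strands were searched for the half-site, TTGGC or its reverse complement GCCAA, which is marked by the capitals. Each line gives the window, its strand and the letters read along that strand, 5′ to 3′.
*Hes5*, chr4:154960755-154960775, plus strand: gtgcccgcGCCAAttcacagg
*Hes5*, chr4:154960819-154960839, plus strand: cgccgccaTTGGCcgccgagt
*Apoe*, chr7:19699225-19699245, minus strand: tccctttgTTGGCgggggagg
*Glul*, chr1:153899807-153899827, plus strand: gttcctcgGCCAAtggcctca
*Glul*, chr1:153899870-153899890, plus strand: ctaggtcaGCCAAtcaaggcg
*Nfix*, chr8:84772860-84772880, minus strand: gccaaacaTTGGCcagtccgg
*Nfix*, chr8:84773370-84773390, minus strand: atcaggcgTTGGCtttgccgg

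A half-site is common at this length. It lay in 15344 of 32851 windows, or 46.7%, and in 31.6% of those windows it was part of CCAAT, the letters bound by the NF-Y complex, as in both *Hes5* lines, both *Glul* lines and the first *Nfix* line above. That *Nfix* line also holds another half-site, in lower case at its start. The full site, TTGGC and GCCAA with 5 bases of any kind between them, lay in 12 windows, or 0.0365%, and in none of the windows of the members or of the gene lists used below. Of 12 Müller glia genes 7 had a window and 4 of these a half-site, of 14 progenitor and glial transcription factors 8 had a window and 6 a half-site, and of 9 early progenitor genes 8 had a window and 2 a half-site. Of the 6 windows of the members 3 held a half-site, or 50%, all of them of *Nfix*. *Nfia* and *Nfic* each had a single window with no half-site, while *Nfix* had several, so the members were not searched equally. *Nfib* had no window, so its promoter was not searched. The *Nfia* window, chr4:97581693-97581992, lies outside the span of *Nfia* given below. The *Nfic* window, chr10:81427124-81427423, and the *Nfix* windows lie inside the spans of those genes, away from their outer 5′ ends. Starts at the 5′ ends of the given spans were thus not searched.

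The 4 genes lie on 3 chromosomes of GRCm38 (GENCODE M21). *Nfia* spans chr4:97772734-98118874 on the plus strand, 346.1 kb. *Nfib* spans chr4:82290173-82705750 on the minus strand, 415.6 kb. *Nfic* spans chr10:81396186-81455635 on the minus strand, 59.45 kb, and *Nfix* chr8:84699876-84800344 on the minus strand, 100.5 kb. Each has 5 to 7 annotated protein-coding transcripts. The libraries were 3′ tag libraries, so a count comes from the 3′ end of a transcript and does not separate these isoforms. Genes annotated on the opposite strand and listed in the files overlap each member (E130114P18Rik in *Nfia*, Gm11266 in *Nfib*, Gm16104 in *Nfic*, *Lyl1* and G430095P16Rik in *Nfix*), but none of them covers a member's 3′ end.

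Levels are given as counts-per-million (CPM), the scaled share of a gene among all unique molecular identifiers (UMIs), summed over the cells of 1 deposited cell type in 1 explant or retina. The libraries held 5607 explant cells, 5706 P0 cells and 3298 P14 cells. An explant gave 1281682 to 4237324 UMIs, a P0 retina 8822880 to 10793649 and a P14 retina 1266730 to 5886669, with a median cell of 3925 to 4317, of 7258.5 to 8541 and of 3381 to 3729.5 UMIs. The deposited cell types held their own markers highest in their library for 15 of 15 types, and the deposited names were kept. P0 photoreceptors also held much of 4 primary progenitor markers, with a sum of 983 to 1689.9 CPM per retina beside 1123 CPM for the 3 photoreceptor markers over the retinas together. The libraries shared 4 to 9 cell barcodes pairwise. *Sstr2* was still counted in knockout retinas, at 41.0 and 43.3 CPM over all P0 cells against 14.1 CPM in the wild type and 22.3 and 33.5 CPM in heterozygotes, so the 3′ count gave no check of the recorded genotypes.

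*Nfia*, *Nfib* and *Nfix* were highest or among the highest in primary progenitors of both young libraries and in Müller glia at P14, with *Nfib* also high in young photoreceptors and *Nfia* in bipolar cells. *Nfic* followed another order, with its highest level in photoreceptors of every library and about equal, low levels in the progenitors. These orders are a description with no test, since the cell types were clustered on these same cells.

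**Figure D1:**
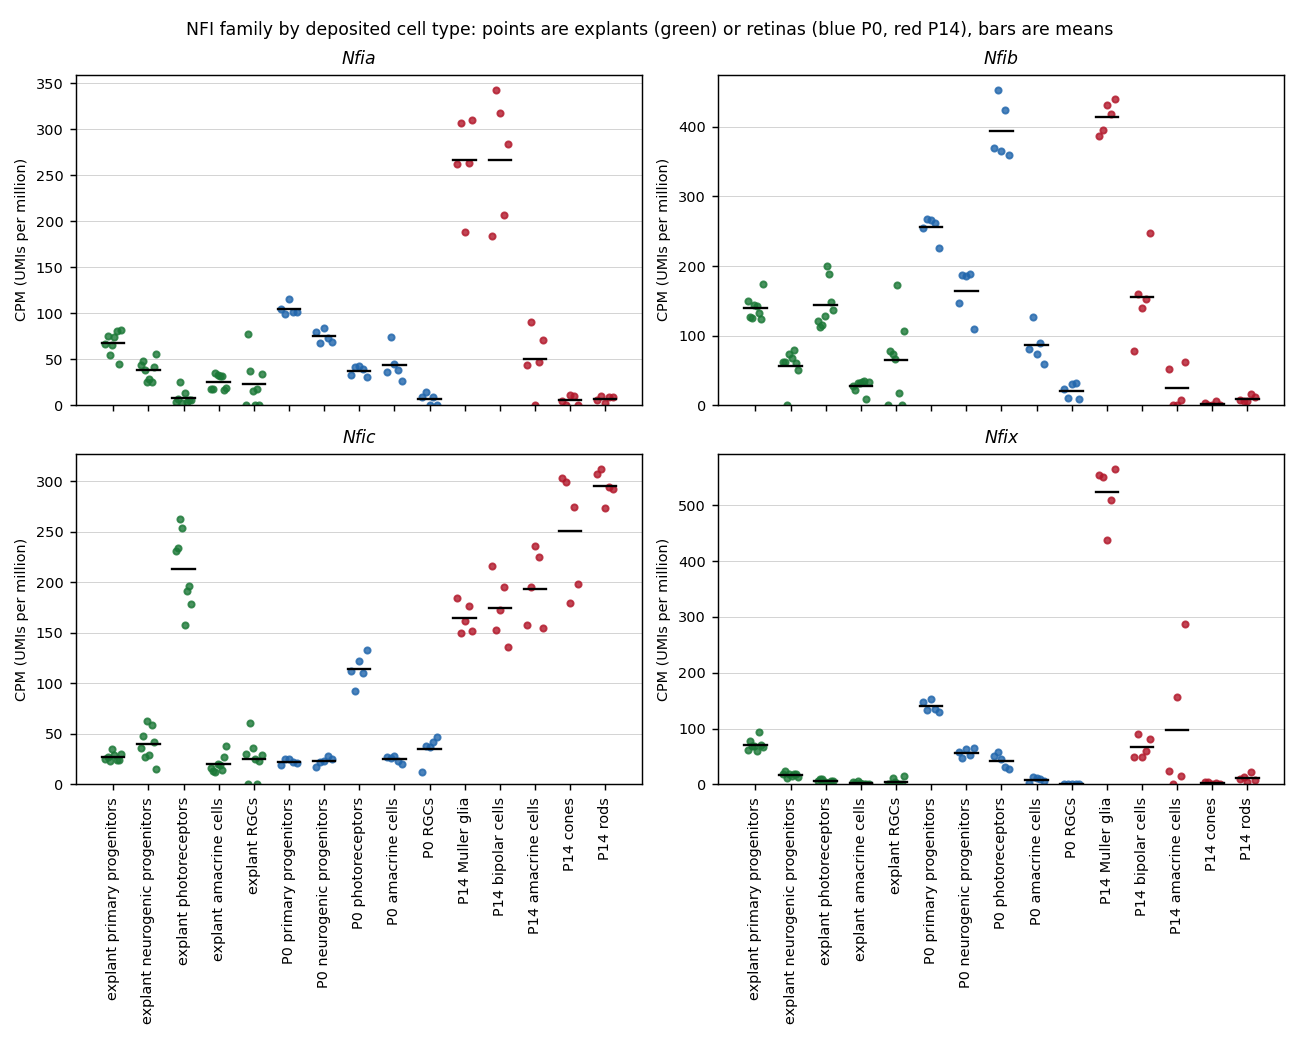
Level of each NFI member (CPM, linear axis from 0) in the 15 deposited cell types. Green points are the 8 explants, blue points the 5 P0 retinas and red points the 5 P14 retinas, and bars are means. *Nfix* peaks in P14 Müller glia, *Nfic* in photoreceptors of each library, and *Nfib* in P14 Müller glia and P0 photoreceptors.

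In P14 Müller glia, the supporting glia of the retina, *Nfia* had 262, 306, 189, 263 and 310.4 CPM in the wild-type, the 2 heterozygous and the 2 knockout retinas, in that order. The value of 189 CPM came from the second heterozygous retina, with 14 Müller glia and 28 UMIs. *Nfib* had 387, 396, 432, 419 and 440.5 CPM in the same order, the narrowest relative spread of the 4. *Nfix* had 555, 551, 439, 509 and 564 CPM. All 5 of these *Nfix* values were above every value of *Nfix* in any other cell type of the 3 libraries. *Nfic* had 185, 149.7, 162, 177 and 152 CPM. The Müller glia mean was 44.1 times the rod mean for *Nfib*, 46.0 times for *Nfix* and 36.8 times for *Nfia*, without overlap, but 0.558 times for *Nfic*.

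Within P14, *Nfia* was at 267 ± 69.0 CPM (SD, n = 5) in bipolar cells and 266 ± 48.9 CPM in Müller glia, and these ranges overlapped. It was lower in amacrine cells (50.2 ± 33.9 CPM), and rods and cones came last at 7.23 ± 3.16 and 5.16 ± 5.24 CPM, both overlapping the lowest amacrine sample. Each of the 2 heterozygous retinas gave 4 amacrine cells, and in the second a value of 157 CPM for *Nfix* was 2 UMIs. The deposited amacrine cells also held horizontal cell markers, at a sum of 467 CPM, the most of the P14 types. Of the 13 amacrine cells with *Nfia*, 6 held such a marker and 6 held 2 or more UMIs of Müller glia markers. *Nfib* fell from 415 ± 22.9 CPM in Müller glia to 156 ± 61.0 CPM in bipolar cells without overlap, and on to 24.6 ± 30.5 CPM in amacrine cells, 9.41 ± 4.44 CPM in rods and 1.77 ± 2.79 CPM in cones. *Nfix* was at 524 ± 52.0 CPM in Müller glia, above amacrine cells (97.0 ± 124 CPM) and bipolar cells (66.2 ± 19.3 CPM), which overlapped each other, and above rods (11.4 ± 6.84 CPM) and cones (2.53 ± 2.40 CPM). For both genes rods overlapped cones, and for *Nfib* rods also overlapped amacrine cells, while for *Nfix* rods stood below bipolar cells without overlap. *Nfic* was at 296 ± 15.1 CPM in rods, 251 ± 58.1 in cones, 194 ± 37.4 in amacrine cells, 174 ± 32.2 in bipolar cells and 165 ± 15.4 CPM in Müller glia. Neighbours in that order overlapped, while rods did not overlap amacrine cells, bipolar cells or Müller glia.

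At P0, primary progenitors, the dividing multipotent cells, held *Nfia* at 105, 99.6, 115, 101 and 101 CPM, again in the order wild type, heterozygotes, knockouts. *Nfib* was at 254, 268, 267, 262 and 226 CPM and *Nfix* at 148, 133, 153, 136 and 130.5 CPM. *Nfic* was at 18.9, 25.5, 24.9, 22.1 and 21.3 CPM. Neurogenic progenitors, which are about to leave the cell cycle, held less of *Nfia* (74.8 ± 7.35 CPM), *Nfib* (164 ± 35.2 CPM) and *Nfix* (57.1 ± 7.28 CPM). The primary progenitor mean was 1.40, 1.56 and 2.45 times the neurogenic mean for these members, and no ranges overlapped. For *Nfic* the ratio was 0.986, with overlapping ranges.

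The order at P0 for *Nfia* was primary progenitors, neurogenic progenitors, amacrine cells (43.7 ± 18.2 CPM), photoreceptors (37.6 ± 5.29 CPM) and retinal ganglion cells (RGCs, 6.28 ± 6.12 CPM), in which amacrine cells overlapped both of their neighbours. For *Nfix* photoreceptors (42.3 ± 12.8 CPM) overlapped neurogenic progenitors, amacrine cells (8.70 ± 4.06 CPM) stood below, and the 85 RGCs held 1 UMI in all. For *Nfib* photoreceptors were first at 369, 453, 366, 424 and 360 CPM, all above every primary progenitor sample, with a mean 1.54 times higher. Neurogenic progenitors and amacrine cells (86.1 ± 25.7 CPM) overlapped for *Nfib*, and RGCs were last at 21.1 ± 11.1 CPM. For *Nfic* photoreceptors were first at 112, 92.5, 122, 110.0 and 133 CPM, 5.06 times the primary progenitor mean, and RGCs (35.2 ± 13.6 CPM), amacrine cells (25.0 ± 3.35 CPM) and both progenitors overlapped in part.

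In the explants, primary progenitors held *Nfib* at 124 to 174 CPM with a median of 137 CPM over the 8 explants, *Nfix* at 59.5 to 93.8 CPM (median 68.8 CPM), *Nfia* at 45.3 to 82.3 CPM (median 70.3 CPM) and *Nfic* at 23.6 to 35.3 CPM (median 25.9 CPM). Their mean was 4.17 times that of neurogenic progenitors for *Nfix* and 2.46 times for *Nfib*, without overlap, and 1.77 times for *Nfia*, with overlap. Explant photoreceptors held *Nfic* at 158 to 263 CPM (median 213 CPM), 7.84 times the primary progenitor mean and without overlap. They held *Nfib* at 113 to 200 CPM, which overlapped primary progenitors, and little *Nfia* (8.33 ± 7.47 CPM, n = 8) or *Nfix* (5.65 ± 3.1 CPM). Amacrine cells held 25.2 ± 8.13 CPM of *Nfia*, 27.9 ± 8.60 of *Nfib*, 20.2 ± 8.59 of *Nfic* and 2.05 ± 2.09 CPM of *Nfix*. The 200 cells named RGCs held 15, 50, 21 and 5 UMIs of *Nfia*, *Nfib*, *Nfic* and *Nfix* in all, too few to place them in an order.

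Explants reached about the age of P0 in culture, and their primary progenitors can be set beside those of P0 retina, although the 2 libraries differ in strain, culture, depth and the cells kept. The P0 mean was 1.97 times the explant mean for *Nfix*, 1.83 times for *Nfib* and 1.53 times for *Nfia*, with no overlap between the 8 explants and the 5 retinas. For *Nfic* it was 0.829 times, with overlap. The deposited explant cells ended at 2499 genes per cell, while P0 cells reached 7324. In the 768 of 2797 P0 primary progenitors with no more than 2499 genes, *Nfib* was at 261 ± 30.6 CPM and *Nfix* at 135 ± 19.7 CPM, still without overlap with the explants. *Nfia* was at 93.7 ± 18.9 CPM there and overlapped them. This restriction was added after the data were seen. The other differences between the libraries cannot be told apart from the culture.

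Between ages, P14 Müller glia had 3.74 times the *Nfix*, 2.55 times the *Nfia* and 1.62 times the *Nfib* of P0 primary progenitors, the cells that give rise to them, and the ranges did not overlap. *Nfic* was 7.33 times higher. Photoreceptors moved in opposite directions for 2 members. *Nfib* was 41.9 times higher in P0 photoreceptors than in P14 rods, while *Nfic* was 2.59 times higher in P14 rods than in P0 photoreceptors. Each age is 1 library, so age, library and depth cannot be told apart in these ratios.

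Counted per cell, members were found together most often in Müller glia. To compare cells of unequal depth, each was thinned to 2000 UMIs and shallower cells were left out (18 of 266 Müller glia, 49 of 1691 explant and 2 of 2797 P0 primary progenitors). Of the thinned Müller glia, 61.7% held a UMI of *Nfix*, 54.0% of *Nfib*, 35.5% of *Nfia* and 27.8% of *Nfic*. In thinned P0 primary progenitors these shares were 23.1%, 37.9%, 17.2% and 4.90%, and in thinned explant primary progenitors 13.4%, 24.8%, 12.5% and 5.97%. With all UMIs, 84.6%, 82.0%, 81.2% and 78.2% of Müller glia held *Nfix*, *Nfib*, *Nfia* and *Nfic*, at a median of 15108 UMIs per cell. P0 primary progenitors held 64.9%, 81.8%, 53.1% and 17.7% at a median of 8759 UMIs, and explant primary progenitors 26.3%, 41.8%, 24.7% and 11.7% at 4548 UMIs. Rods, at a median of 3374 UMIs, served as the type expected to lack the first 3 members. In thinned rods *Nfix* was found in 2.13%, *Nfib* in 1.67% and *Nfia* in 1.52% of cells, but *Nfic* in 41.5%.

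With all UMIs, and so at unequal depth, all 4 members were found in the same cell in 68.4% of Müller glia. They were found so in 6.90% of P0 primary progenitors and in 0.651% of explant primary progenitors. In cells thinned to 2000 UMIs these shares were 2.42%, 0.107% and 0.0609%. *Nfia*, *Nfib* and *Nfix* were found together in 72.9%, 31.8% and 4.08% of these cells, and after thinning in 12.9%, 1.90% and 0.487%. A Müller cell that held *Nfix* held 8.51 of its UMIs on average and at most 20.

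RNA released from broken cells can put UMIs of any abundant gene into every droplet, so the P14 levels were set beside genes of rods and of Müller glia. *Gnat1*, the rod transducin subunit, had 7.93% of its rod level in Müller glia, 11.2% in bipolar cells, 4.91% in amacrine cells and 31.0% in cones. *Nfic* had 56.4%, 61.0%, 57.4% and 90.1% of its rod level in the same types, above the share of *Gnat1* in each. The part of released RNA in these *Nfic* levels was not tested. *Glul*, the glutamine synthetase of Müller glia, had 1.51% of its Müller level in rods and 1.57% in bipolar cells. The other Müller genes compared, *Rlbp1* and the glutamate transporter gene *Slc1a3*, had 1.24% and 0.694% in rods and 1.05% and 0.350% in bipolar cells. The rod level of *Nfix*, *Nfib* and *Nfia* was 2.13%, 2.20% and 2.70% of the Müller level, above the shares of all 3 Müller genes, and the part of released RNA in it was not tested. In bipolar cells the same members had 12.0%, 34.8% and 88.2% of their Müller level, all above these genes, and the part of released RNA was not tested there either.

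Within P0 photoreceptors, *Nfia* and *Nfix* were found mostly in a minority of cells that also held progenitor transcripts. P0 photoreceptors were divided, after their values had been seen and so with no test, by their UMIs of 4 primary progenitor markers (*Sfrp2*, *Fgf15*, *Ccnd1* and *Hes1*). The 688 cells with none of these UMIs, 60.2% of all, held *Nfix* at 5.45 CPM and *Nfia* at 10.6 CPM over the retinas together. The 241 cells with 3 or more, 21.1% of all, held *Nfix* at 93.1 CPM and *Nfia* at 70.5 CPM, and with them 92.8% of the *Nfix* UMIs and 81.8% of the *Nfia* UMIs of P0 photoreceptors. They also held 41.9% of the *Nfib* and 29.3% of the *Nfic* UMIs, so their share of UMIs was above their share of cells for every member. Per retina *Nfix* was at 104, 99.3, 92.7, 76.3 and 78.6 CPM in this class and at 1.43 to 11.4 CPM in the cells without such UMIs.

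*Nfib* did not follow that division, and *Nfic* went the other way. *Nfib* was at 426 CPM in the cells without a progenitor UMI (383 to 473 CPM over the retinas) and 375 CPM in those with 3 or more (252 to 451 CPM), with overlapping ranges. *Nfic* was at 156 CPM (143 to 173 CPM) against 74.8 CPM (49.1 to 97.3 CPM), without overlap. *Crx*, a transcription factor of photoreceptor precursors, was at 347 CPM in the first class and 149.9 CPM in the second. The cells with 3 or more progenitor UMIs had a median of 13691 UMIs against 3961 UMIs, so depth moved with the class. Whether they are immature photoreceptors or droplets with more than 1 cell was not tested. In explant photoreceptors this class was 46 cells, 2.77% of all, and the pattern of *Nfix* was not seen there, with 5.04 CPM on 1 UMI in the class and 5.04 CPM in the cells without a progenitor UMI. *Nfia* had 25.2 CPM on 5 UMIs against 5.04 CPM.

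**Figure D2:**
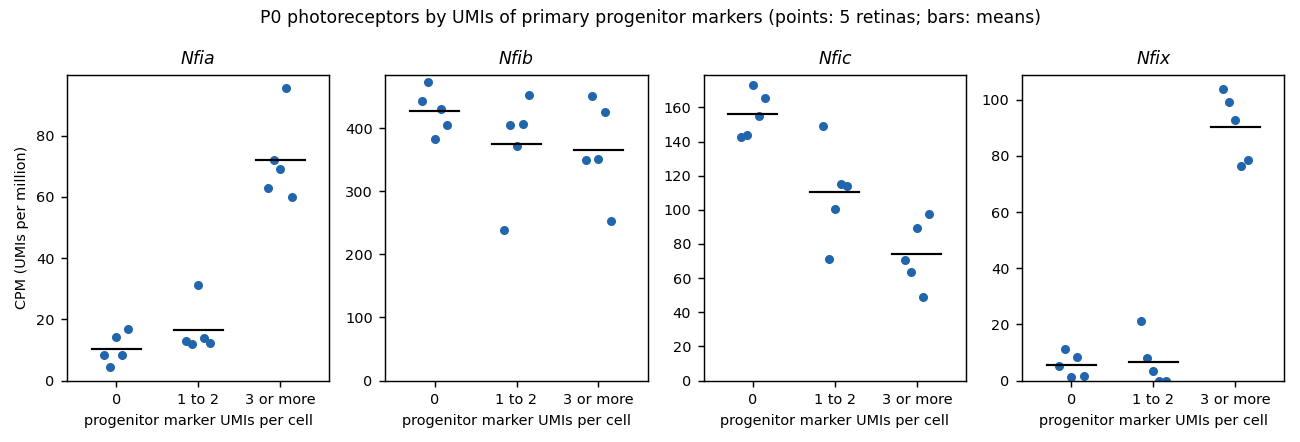
Level of each member (CPM, linear axis from 0) in P0 photoreceptors with 0, 1 to 2, or 3 or more UMIs of 4 primary progenitor markers. Points are the 5 retinas and bars their means, and *Nfia* and *Nfix* are high in the third class alone while *Nfic* steps down.

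In bipolar cells, the interneurons that relay photoreceptor signals, *Nfia* was concentrated in few cells. Of 578 bipolar cells 129 held its 773 UMIs, at 5.99 UMIs per positive cell, and 87.8% of the UMIs were in the 58 cells richest in it, of which none held more than 28. The 58 bipolar cells richest in each other member held 85.4% of the *Nfix*, 79.7% of the *Nfib* and 40.3% of the *Nfic* UMIs. In Müller glia the 27 richest of 266 cells held 27.3% of the *Nfia* UMIs. Depth differed between these types, with medians of 15108 UMIs per Müller cell and 3939.5 per bipolar cell. Bipolar cells were divided by known class genes, again after their values had been seen and with no test. The 166 cells with at least 2 UMIs of *Prkca*, the protein kinase of rod bipolar cells, held *Nfia* at 25.1 CPM and *Nfix* at 16.0 CPM over the retinas together. The 43 cells with *Kcng4* or *Neurod2*, genes of small cone bipolar subsets, held *Nfia* at 1020 CPM (1019.7 over the retinas together) and *Nfix* at 252 CPM. These 43 cells were 7.44% of bipolar cells and held 39.3% of the *Nfia* and 36.4% of the *Nfix* UMIs. Their median was 7424 UMIs per cell against 4048.5 in the *Prkca* cells, so depth differed between these classes too. The 297 cells of no named class, 51.4% of bipolar cells, held 54.1% of the *Nfia* UMIs at 254 CPM and 54.9% of the *Nfix* UMIs at 68.7 CPM.

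Per retina, *Nfia* in the *Kcng4* or *Neurod2* cells was at 1153, 1092, 2425, 782 and 788 CPM, where the value of 2425 CPM was 1 cell of the second heterozygous retina. All 5 values were above every value in the *Prkca* cells, which lay between 0 and 91.6 CPM. *Nfib* had its highest level in yet another class, the 72 cells with *Grik1* or *Neto1*, genes of OFF bipolar cells. There it was at 279, 631, 393, 546 and 536 CPM, and these cells held 34.5% of the bipolar *Nfib* UMIs against 78.6 CPM over the retinas together in *Prkca* cells. *Nfic* differed less, with 223 CPM in *Prkca* cells, 181 CPM in *Grik1* or *Neto1* cells and 107 CPM in *Kcng4* or *Neurod2* cells.

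**Figure D3:**
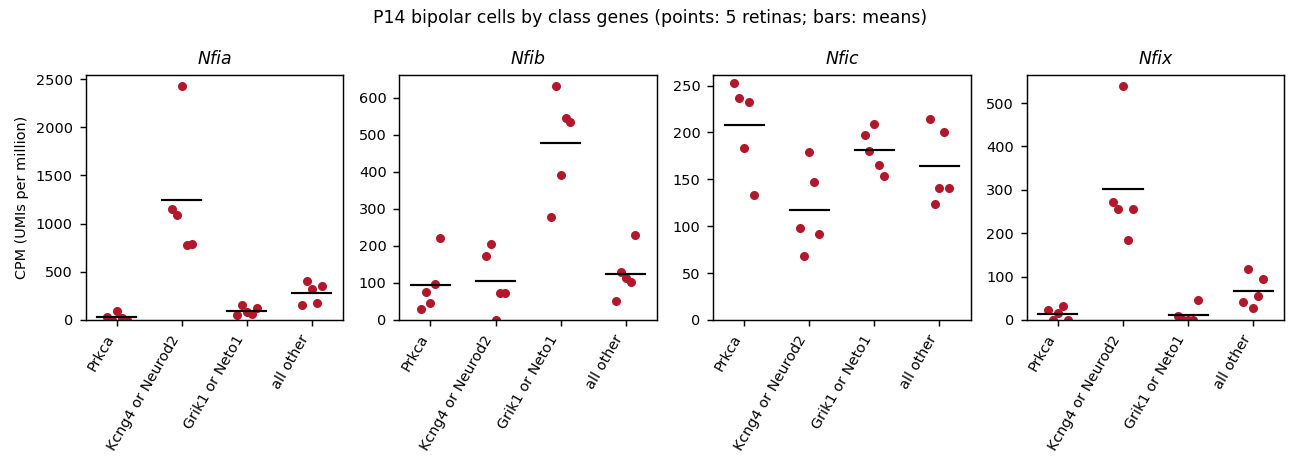
Level of each member (CPM, linear axes from 0 that differ between panels) in 4 classes of P14 bipolar cells set by class genes. Points are the 5 retinas and bars their means, with *Nfia* and *Nfix* highest in *Kcng4* or *Neurod2* cells and *Nfib* highest in *Grik1* or *Neto1* cells.

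ON and OFF bipolar cells, which respond to light increments and decrements, were compared within each retina. ON cells (360) had a UMI of *Isl1*, *Grm6* or *Prkca* and none of *Grik1* or *Neto1*, and OFF cells (34) the reverse. *Nfib* was at 71.4, 160.5, 49.2, 99.2 and 206 CPM in ON cells and at 447, 933, 1795, 508 and 1271 CPM in OFF cells. It was lower in ON cells in 5 of 5 retinas, by 3.06 ± 1.18 (SD) on the log2(CPM + 1) scale. *Nfia* was higher in ON cells in 5 of 5 retinas, at 229, 318, 336, 229 and 194 CPM against 0, 179, 0, 50.8 and 84.7 CPM. *Nfix* had 144 UMIs in ON cells and 0 in OFF cells. A count of 0 among 113236 UMIs allows up to 26.5 CPM (3 counts over the group), so ON cells, at 76.9 CPM over the retinas together, were at least 2.90-fold higher, for counting error alone. The 166 *Prkca* cells above are all ON cells by these rules. They held *Nfia* at 25.1 CPM, below the 79.5 CPM of OFF cells over the retinas together. Their *Nfix*, at 16.0 CPM, lay within what the count of 0 allows in OFF cells. The higher levels of ON cells as a group were thus not those of these cells.

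With 5 pairs the exact two-sided sign-flip permutation test cannot go below p = 0.063, and *Nfia*, *Nfib* and *Nfix* each reached that value (adjusted p = 0.0833 by Benjamini-Hochberg over the 4 members). None passed 0.05. *Nfic* differed by -0.04 (exact permutation p = 0.750). The second heterozygous retina gave 1 OFF cell.

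Among 68 P14 amacrine cells, inhibitory interneurons of the inner retina, *Nfix* had 81 UMIs in 10 cells, and 69 of these UMIs were in the second knockout retina. Of the 10 cells 8 held *Slc6a9*, the glycine transporter, 4 held *Gad1* or *Gad2*, enzymes of GABA synthesis, 0 held a horizontal cell marker and 5 held 2 or more UMIs of Müller glia markers. In cells with *Slc6a9* and no *Gad1* or *Gad2* (6 cells, glycinergic) *Nfix* had 22 UMIs, and in cells with *Gad1* or *Gad2* and no *Slc6a9* (26 cells, GABAergic) it had 0 of 232063 UMIs, which allows up to 12.9 CPM. The exact two-sided sign-flip permutation test over the 3 retinas with both classes gave p = 0.500, and it cannot go below 0.25. *Nfib* had 0 UMIs in both classes.

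Primary progenitors were also divided into cycling cells, with a UMI of *Mki67*, *Top2a*, *Ccnb1*, *Cenpf* or *Ube2c*, and all others. In the explants *Nfia* was lower in cycling cells, at 61.2 ± 14.0 CPM (SD, n = 8) against 76.3 ± 15.6 CPM, in 7 of 8 explants (difference -0.32 ± 0.29 on the log2(CPM + 1) scale, exact permutation p = 0.0234, adjusted p = 0.0469). *Nfib* was higher in cycling cells, at 156 ± 21.2 CPM against 118 ± 28.9 CPM, in 7 of 8 explants (difference 0.43 ± 0.48, exact permutation p = 0.0234, adjusted p = 0.0469). Neither passed 0.05 when any 1 explant was left out (adjusted p = 0.063 to 0.094) or when cycling cells had to hold 2 UMIs (adjusted p = 0.141 for *Nfia* and 0.0938 for *Nfib*, exact permutation test). *Nfix* (-0.05) and *Nfic* (-0.01) had adjusted p = 0.977 by the same exact permutation test. In the P0 retinas the differences were 0.15 for *Nfia*, -0.09 for *Nfib*, 0.23 for *Nfix* and 0.03 for *Nfic*, and none passed (adjusted p = 0.333, 0.333, 0.333 and 0.938, exact permutation test whose smallest p is 0.063). The explant directions for *Nfia* and *Nfib* were thus not those of the P0 retinas, and the difference between the libraries was not tested.

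Under the Sstr2 agonist the family was compared first in primary progenitors, where 3 of the members were high. No member passed the threshold there. *Nfia* was at 66.7 and 75.1 CPM without agonist, at 45.3 and 82.3 CPM with 500 nM, and in between with 5 nM (55.0 and 65.2 CPM) and with 50 nM (73.9 and 80.8 CPM). The 2 explants at 500 nM enclosed all 6 others. *Nfib* was at 149 and 127 CPM without agonist against 124 and 174 CPM with 500 nM, *Nfix* at 62.2 and 76.9 CPM against 71.2 and 67.6 CPM, and *Nfic* at 24.9 and 26.8 CPM against 23.7 and 30.1 CPM. The groups overlapped for every member.

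By edgeR's quasi-likelihood test on the summed counts of primary progenitors, with p-values adjusted by Benjamini-Hochberg over all genes tested, the change at 500 nM was -0.13 in log2 (95% interval -0.55 to 0.29) for *Nfia*, 0.06 (-0.27 to 0.39) for *Nfib*, 0.04 (-0.58 to 0.67) for *Nfic* and -0.04 (-0.44 to 0.37) for *Nfix*. The adjusted p was 0.907 for *Nfia* and higher for the others. In this fit 0.317% of 8514 genes were called at an adjusted p under 0.05, and 0 of 4 members.

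In explant photoreceptors *Nfic* was at 231 and 234 CPM without agonist. It was at 263 and 254 CPM with 5 nM, at 158 and 192 CPM with 50 nM and at 196 and 179 CPM with 500 nM. The 4 explants at 50 and 500 nM were all below the 4 others. The fitted change at 500 nM was -0.28 (SE 0.14), with adjusted p = 0.853 by edgeR's quasi-likelihood test, so it was not called. *Nfib*, at 121 and 113 CPM without agonist, was highest with 50 nM (199.8 and 189 CPM). With 500 nM it was at 148 and 137 CPM, a change of 0.29 (SE 0.16, edgeR adjusted p = 0.917) that was not called. Of 7440 genes 0.0941% were called in photoreceptors.

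In explant amacrine cells *Nfic* was at 16.1 and 13.8 CPM without agonist, on 27 and 8 UMIs, and at 27.0 and 38.1 CPM with 500 nM, on 21 and 32 UMIs. The change was 1.08 (SE 0.33, edgeR adjusted p = 0.371) and was not called. The summed photoreceptor markers in these amacrine cells moved with it, at 39.3 and 41.3 CPM without agonist against 62.9 and 117 CPM with 500 nM, and their part in the result was not tested. Without the cells that scored highest as possible doublets the change was 0.68. Of 8188 genes 0.269% were called in amacrine cells and of 6072 genes 0.0988% in neurogenic progenitors, and 0 of 3 members tested in each. Every explant RGC test of a member was left out by the filter on low counts.

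**Figure D4:**
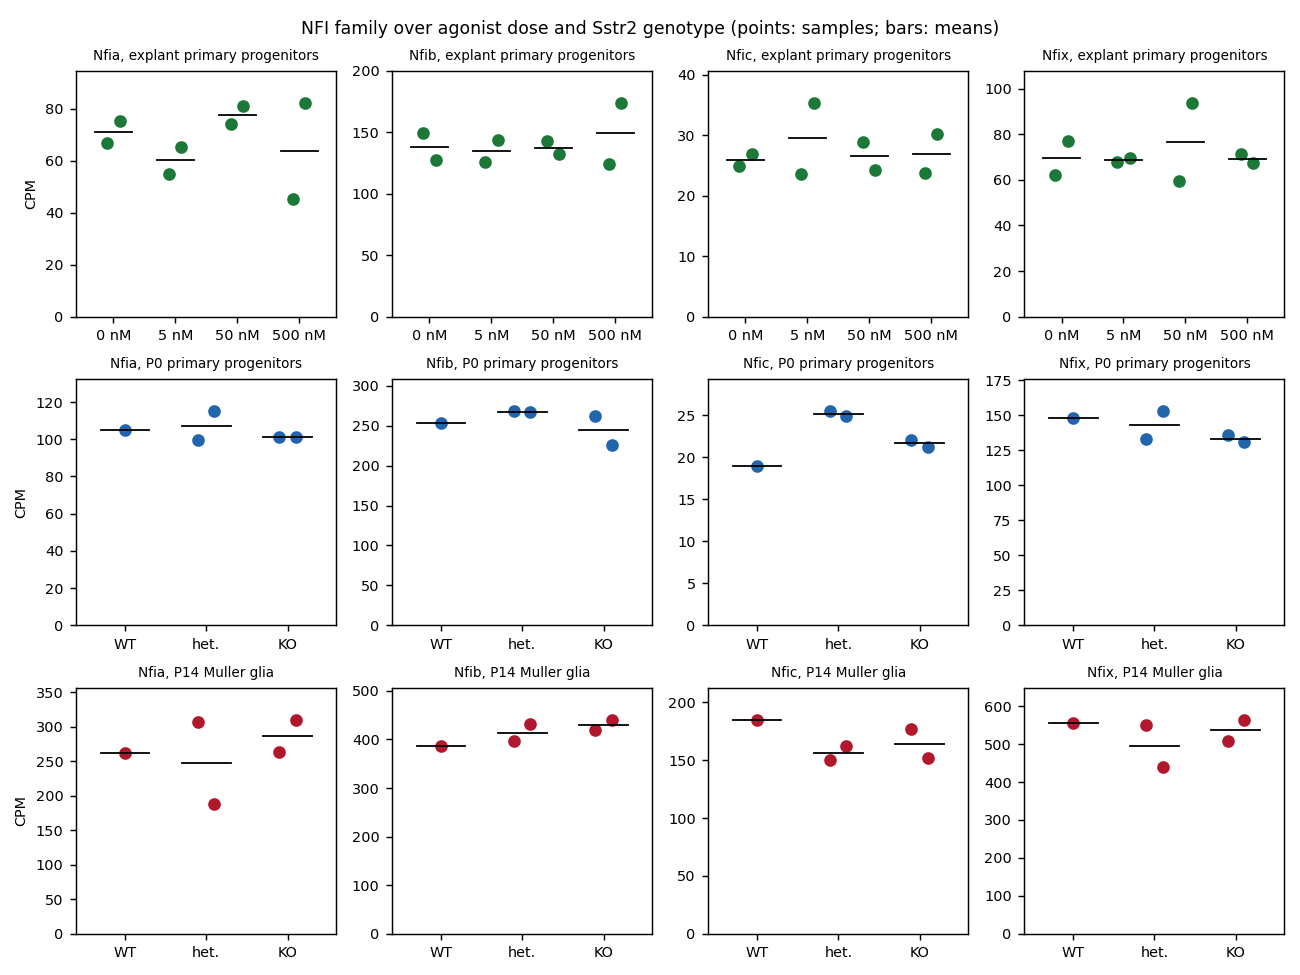
Level of each member (CPM, linear axes from 0 that differ between panels) in explant primary progenitors by agonist dose in nM (top), in P0 primary progenitors by genotype (middle) and in P14 Müller glia by genotype (bottom; WT wild type, het. heterozygous, KO knockout). Points are explants or retinas and bars means, and the points of the compared groups lie close together or overlap in most panels.

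In the *Sstr2* allelic series at P0, the primary progenitor values given above differed little between genotypes. The fitted change in knockout against wild type was -0.08 in log2 (95% interval -0.33 to 0.18) for *Nfia*, -0.08 (-0.34 to 0.18) for *Nfib*, 0.17 (-0.20 to 0.54) for *Nfic* and -0.17 (-0.41 to 0.07) for *Nfix*, all with adjusted p = 0.993 by edgeR. Of 11939 genes 0.0251% were called in primary progenitors, 0.0334% of 8984 in neurogenic progenitors, 0.00987% of 10129 in photoreceptors, 0.00964% of 10373 in amacrine cells and 0.658% of 6994 in RGCs. None of the 18 member tests at P0 was called. Since the wild type is 1 retina, the spread in these fits came from the heterozygous and knockout pairs.

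Relative to its error, the largest change of a member at P0 was that of *Nfix* in photoreceptors. It was at 50.7 CPM in the wild type, 57.4 and 45.2 CPM in heterozygotes and 30.3 and 28.1 CPM in knockouts, so both knockouts lay below the 3 others. The change was -0.81 (SE 0.26, edgeR adjusted p = 0.979) and was not called. The progenitor markers described above moved with it, with a summed level of 1297 CPM in the wild type, 1689.9 and 1421 CPM in heterozygotes and 1087 and 983 CPM in knockouts. The share of photoreceptors with 3 or more of their UMIs was 20.1%, 27.4%, 26.0%, 16.3% and 14.2% in the same order. Within that class *Nfix* was also lowest in the knockouts, by less, at 76.3 and 78.6 CPM against 92.7 to 104 CPM.

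*Nfic* in P0 RGCs, the first-born output neurons of the retina, was at 12.0 CPM in the wild type, 37.8 and 37.1 CPM in heterozygotes and 42.2 and 46.9 CPM in knockouts. The wild-type value rested on 4 UMIs in 13 cells. The change was 1.81 (SE 0.66, edgeR adjusted p = 0.284) and was not called, and all 3 photoreceptor markers together gave at most 2 CPM (1.99 CPM) in any of these RGC samples.

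At P14, no member was called in Müller glia, where the changes in knockout against wild type were 0.13 (95% interval -0.40 to 0.66) for *Nfia*, 0.15 (-0.30 to 0.60) for *Nfib*, -0.16 (-0.68 to 0.35) for *Nfic* and -0.05 (-0.50 to 0.40) for *Nfix*, with adjusted p = 1.000 by edgeR. Of 8816 genes 0.0567% were called there, of 8787 genes 0.091% in bipolar cells, of 5093 genes 0.412% in cones and of 9474 genes 0.0211% in rods. In amacrine cells 0% of 4715 genes were called by edgeR, DESeq2 or limma, with 88 genes at an unadjusted p under 0.05 by edgeR. In rods *Nfic* had 307, 312, 273, 294 and 292 CPM and a change of -0.05 (95% interval -0.33 to 0.24).

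*Nfib* in bipolar cells came nearest to the threshold. It was at 77.6 CPM in the wild type, 159.5 and 140.0 CPM in heterozygotes and 152 and 248 CPM in knockouts, and the wild-type retina was below the 4 others. The change in knockout was 1.38 (SE 0.36, edgeR adjusted p = 0.181). Each knockout retina was also left out, which sets 1 knockout against 1 wild-type retina with the spread from the heterozygous pair alone. The change was then 1.69 without the first and 1.01 without the second. Without the cells of highest doublet score it was 0.818 by edgeR. Knockout against heterozygous retinas gave 0.40 (edgeR adjusted p = 0.999), and DESeq2 gave an unadjusted p = 0.00447.

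The wild-type retina was also the lowest for *Nfib* within *Grik1* or *Neto1* cells, at 279 CPM against 393 to 631 CPM. The same held in *Prkca* cells, at 30.6 CPM against 45.8 to 222 CPM. It held too in the bipolar cells of no named class, at 52.3 CPM against 102 to 229 CPM. In *Kcng4* or *Neurod2* cells the wild type was not the lowest, at 174 CPM on 16 UMIs. Heterozygotes there were at 205 and 0 CPM, and each knockout was at 73.3 CPM. The share of bipolar cells with *Grik1* or *Neto1* was 12.6% in the wild type, 10.99% and 13.8% in heterozygotes and 13.8% and 10.9% in knockouts. Summed markers of Müller glia in bipolar cells were at 133 CPM in the wild type and 138 and 70.0 CPM in heterozygotes. They were at 319 and 120 CPM in knockouts (119.5 CPM in the second), and their part in the *Nfib* result was not tested.

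In all, 46 member tests were made in 14 comparisons, and 14 were not made because of low counts. edgeR called 0 of 46 with 6 at an unadjusted p under 0.05, DESeq2 called 0 with 1, and limma on SCTransform values called 0 with 4. By edgeR 1.73% to 8.63% of all genes were at an unadjusted p under 0.05 in these comparisons. The sixth of those by edgeR beside the 5 given was *Nfix* in P14 amacrine cells, with a change of 2.55 (SE 1.28, edgeR adjusted p = 1.000) that rested on the 69 UMIs of the second knockout retina.

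**Figure D5:**
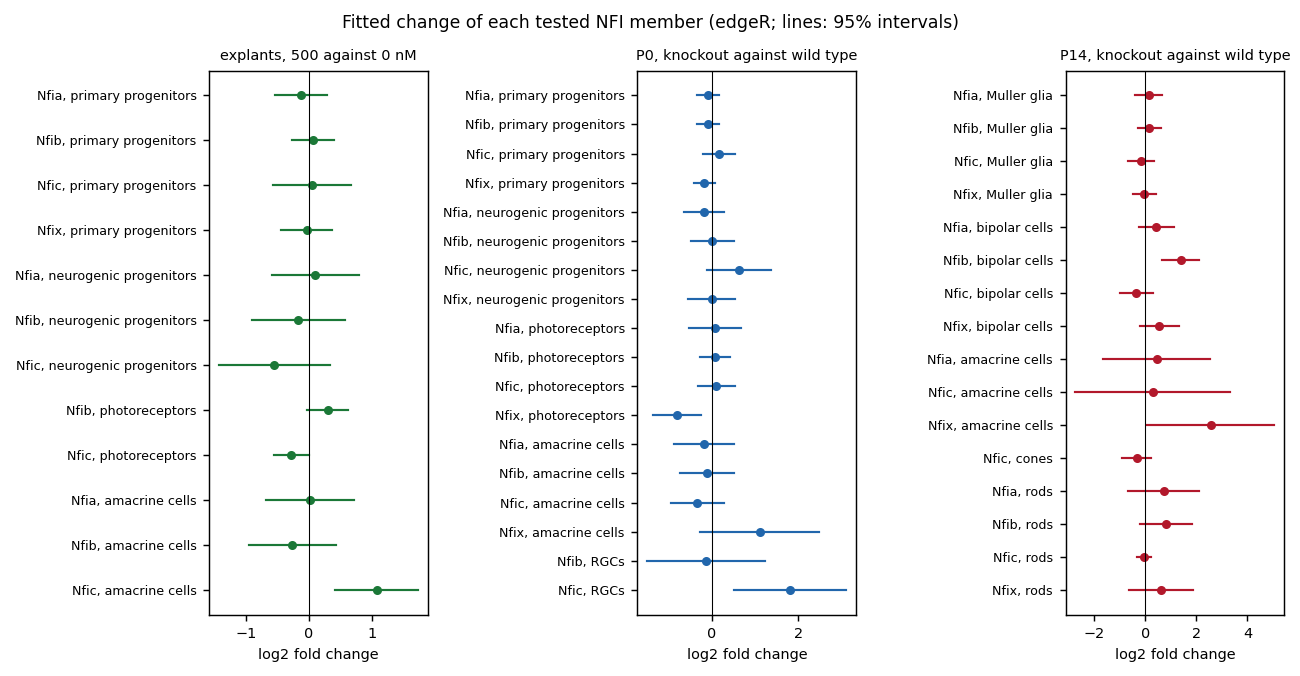
Fitted log2 fold change of each tested member (points) with its 95% interval (lines) by edgeR, for 500 nM against 0 nM in explants (left) and knockout against wild type at P0 (middle) and P14 (right). The axes differ in scale, most intervals cross 0, and *Nfib* in P14 bipolar cells lies farthest from 0 relative to its interval.

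Genes whose mean levels over the 15 cell types were most like those of each member were taken by Pearson's r over 12200 genes, as a description whose 15 points share libraries, depths and samples. For *Nfia* they were *Tgfb2*, a growth factor of the TGF-beta family (r = 0.948), *Prkg1* (0.924), *Mettl7a1* (0.913), the matrix protein gene *Fn1* (0.910) and *Plod2* (0.907). *Tgfb2* was at 573 CPM in Müller glia, 446 CPM in bipolar cells and 11.8 CPM in rods. For *Nfib* they were *Nectin3* (0.910), *Ppp3ca* (0.888), the progenitor and glial factor *Sox9* (0.869), *Mettl27* (0.865) and *Tmem64* (0.862). For *Nfix* they were *Fn1* (0.936), *Tulp3* (0.934), the hedgehog co-receptor gene *Cdon* (0.919), *Gng11* (0.918) and the tetraspanin gene *Cd9* (0.907), the last at 1408 CPM in Müller glia and 9.75 CPM in rods.

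For *Nfic* the closest genes were *Naaa* (0.966), *Atp1b2* (0.962), the outer segment genes *Prph2* (0.959) and *Rom1* (0.957), and *Stim1* (0.956). *Prph2* was at 3709 CPM in rods and 0.742 CPM in P0 primary progenitors. Among the members r was 0.843 for *Nfia* with *Nfix*, 0.726 for *Nfia* with *Nfib* and 0.647 for *Nfib* with *Nfix*, while *Nfic* had -0.166, -0.254 and 0.145 with *Nfia*, *Nfib* and *Nfix*.

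Genes of the programme in which the family acts were counted from 3 lists. In explant primary progenitors 2 of the 9 Müller glia genes tested (12 listed) fell at 500 nM. These were *Rlbp1*, the retinaldehyde-binding protein (change -0.96, SE 0.20, edgeR adjusted p = 0.0119), and *Crym*, a thyroid hormone-binding protein (-0.96, SE 0.21, edgeR adjusted p = 0.0170). The list's median change was -0.04 against 0.01 for all genes tested. Of 14 progenitor and glial transcription factors *Hes5*, the Notch target, fell (-0.59, SE 0.12, edgeR adjusted p = 0.00496), with a list median of 0.05. Of 5 early progenitor genes tested (9 listed) none was called, and *Fgf15* (0.40) and *Hmga1* (0.29) had the largest changes, with a median of 0.28.

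In explant amacrine cells 1 of 6 Müller glia genes tested rose, *Apoe*, an apolipoprotein of glia (1.98, SE 0.26, edgeR adjusted p = 1.26e-06). Summed markers of Müller glia in these cells were at 129 and 94.6 CPM without agonist and at 132 and 108 CPM with 500 nM. Summed markers of microglia (19.5 CPM) and of endothelial cells (28.1 CPM) were highest in amacrine cells among the explant types. The part of such cells in the *Apoe* result was not tested. In P0 primary progenitors 0 of 11 Müller glia genes, 0 of 14 transcription factors and 0 of 7 early progenitor genes were called, with *Clu* (0.72) and *Sparc* (-0.41), *Hes5* (0.30), and *Lin28b* (-0.24) and *Fgf3* (0.23) among the largest changes of the lists. In P14 Müller glia 0 of 12, 0 of 13 and 0 of 1 were called, with *Dkk3* (0.42), *Apoe* (-0.21), *Sox8* (-0.68) and *Hes5* (0.53) the largest of the first 2 lists. The medians there were 0.10 and 0.06 against 0.01 for all genes. In P14 bipolar cells, where *Nfib* came nearest to the threshold, 0 of 10 Müller glia genes were called and their median change was 0.72 against 0.02 for all 8787 genes, with *Vim* (1.58) and *Rlbp1* (1.52) the largest. Their part in the *Nfib* result was not tested.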

How the data were processed

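Retinal explants (8 samples at 4 doses), P0 retinas (5) and P14 retinas (5) were profiled by MULTI-seq on 10x Chromium 3′ libraries. The raw UMI counts per gene and cell that the authors deposited came from Cell Ranger (3.1.0 in the submitters' processing notes, which also name Seurat 3 and mm10). The authors assigned cells to samples with deMULTIplex. The authors also deposited SCT values, on a natural log scale, of counts adjusted by SCTransform for depth, after adding 1. Filters on cells are not given in the sources used here. Cell types, doses and genotypes were those the authors recorded for each cell, and sample numbers follow barcode order and are only names.

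For every cell type, the raw counts of a sample's cells were added up, and these sums were fitted in edgeR 4.0.16 (quasi-likelihood, TMM, its low-count filter, Benjamini-Hochberg over all genes, threshold 0.05) in R 4.3.3, 1 fit per library and cell type over every dose or genotype. Alternatives were DESeq2 1.42.0, its size factors, no filter, limma 3.58.1 on log2(CPM + 1) of summed SCT values, and a fit without the 5% of cells scored highest by Scrublet (279 explant, 278 P0 and 119 P14 cells, scanpy 1.11.5), cells otherwise kept. Scrublet itself marked 1.62%, 8.82% and 0.819% of cells. Further alternatives left out each sample in turn, fitted a slope over dose, and compared knockout with heterozygous retinas. The single wild-type retina of each age could not be left out of the genotype fits, so these do not check its weight. Splits of a cell type were tested by exact sign-flip permutation over samples. Floors for a count of 0 cover counting error only. The SEs and 95% intervals of the edgeR changes were derived from the log2 change and the F statistic of each quasi-likelihood test. The fits were tested on simulated data.

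Members and lists were chosen with earlier results of these data known. Named genes are the members, the 5 genes most like each by Pearson's r among genes of at least 10 CPM in a type, and list genes called, or otherwise the 2 largest changes. Python 3.11.15, numpy 2.4.6, scipy 1.17.1, pandas 2.3.3 and matplotlib 3.10.9 were used. Some genes are not reported here, and the progenitor marker sum was taken without 1 of its genes.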

Additional observations from a re-analysis of the deposited data

Results flagged for a closer look

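Of 60 groups of samples (4 members in 15 cell types), 5 held a sample that stood far from the others. By chance the rule would mark about 1 group in 20 if values were normally distributed. That rate need not hold for samples with few UMIs, such as the 5 below. *Nfib* in explant neurogenic progenitors was at 0 CPM in the first 5 nM explant, with 0 UMIs in 38 cells, while the nearest other explant was at 50.9 CPM. *Nfia* in explant photoreceptors was at 25.0 CPM in the same explant, on 8 UMIs, with the nearest at 13.1 CPM. *Nfib* in explant amacrine cells was at 8.99 CPM in the first 500 nM explant, on 7 UMIs, with the nearest at 22.4 CPM. *Nfic* in P0 RGCs was at 12.0 CPM in the wild-type retina, on 4 UMIs in 13 cells, with the nearest at 37.1 CPM. *Nfix* in P0 RGCs was at 1.41 CPM in the first knockout retina, which is 1 UMI, with the others at 0.

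For 2 members, both explants at 500 nM lay on one side of both explants at 0 nM in one cell type and on the other side in another. *Nfib* was higher at 500 nM in photoreceptors and lower in neurogenic progenitors, and the fitted log2 changes differed by 0.46. *Nfic* was higher in amacrine cells and lower in photoreceptors, and the changes differed by 1.36. Neither difference was tested.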

How the results depend on the processing

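Samples could not be paired across doses or genotypes, because the sample numbers follow barcode order and the labels pair no samples, so no replicate block was fitted. The splits of a cell type were paired within each sample. The count of members called stayed at 0 in all 84 alternative settings that kept every sample and in 71 that left out 1 sample. It differed only for *Nfib* in P14 bipolar cells without the first knockout retina. That fit sets 1 knockout against 1 wild-type retina with the spread from the heterozygous pair alone. Only its log2 change is therefore given (1.69, with 1.01 to 1.69 over the retinas left out). Of 72 alternative values of the members in primary progenitors and Müller glia, 63 kept their direction and 9 reversed, none near the threshold. In explant primary progenitors these were *Nfic* at -0.22 and *Nfix* at 0.042 without the cells of highest Scrublet score, and *Nfic* at -0.042 as a slope over dose. Knockout against heterozygous retinas gave *Nfic* -0.22 at P0 and, in Müller glia, *Nfic* 0.077 and *Nfix* 0.070. limma on SCT values gave *Nfia* -0.090, *Nfib* -0.11 and *Nfic* 0.047 in Müller glia. The cause was not tested.

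Leaving out 1 sample gave, in explant primary progenitors, -0.65 to 0.16 for *Nfia*, -0.20 to 0.24 for *Nfib*, -0.14 to 0.16 for *Nfic* and -0.23 to 0.10 for *Nfix*. It gave -0.20 to 0.034 for *Nfib* in P0 primary progenitors and -0.13 to 0.029 for *Nfix* in Müller glia. For cycling against other progenitors it gave -0.40 to -0.28 for *Nfia*, 0.29 to 0.51 for *Nfib*, -0.18 to 0.095 for *Nfic* and -0.11 to 0.048 for *Nfix* in explants, and -0.087 to 0.095 for *Nfic* at P0. With a minimum of 2 cycling UMIs the explant values were -0.44, 0.46 and 0.093 for *Nfia*, *Nfib* and *Nfic*. It gave -2.39 to 3.85 for *Nfia* and -0.77 to 0.12 for *Nfic* in glycinergic against GABAergic cells, and -0.38 to 0.29 for *Nfic* in ON against OFF cells. Without thinning, shares rose to 24.7%, 41.8%, 11.7% and 26.3% of explant primary progenitors for *Nfia*, *Nfib*, *Nfic* and *Nfix*, to 53.1%, 81.8%, 17.7% and 64.9% at P0 and to 81.2%, 82.0%, 78.2% and 84.6% of Müller glia. On SCT values the Müller glia means were 336, 511, 129 and 650.0 CPM. P0 photoreceptors then held less *Nfia* (23.7 ± 3.82 CPM) and *Nfix* (25.8 ± 9.24 CPM) than on raw counts. *Nfix* in them, at 13.6 to 37.1 CPM, no longer overlapped P0 neurogenic progenitors, at 43.8 to 64.9 CPM. Low counts left explant RGCs without a test of any member.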
